A study of Mus musculus with 5 samples.

Results

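Spiral ganglion neurons of the mouse cochlea that carried floxed Runx1 alleles and held high Lypd1 RNA are described here. They were chosen by their own RNA, from single cells that the deposited record assigns to the Runx1 conditional knockout (CKO). Levels are unique molecular identifiers (UMIs, tags that mark single captured molecules) per 10000 UMIs of a cell. A cell counted as type I where Dupd1, here a mark of type II neurons, was under 1, and as Lypd1-high where Lypd1 was 3 or more. The rule gave 132 CKO Lypd1-high neurons of 732 CKO type I neurons, 884 CKO cells and 1954 cells in all. The same limits gave 314 control Lypd1-high neurons of 951 control type I neurons and 1070 control cells. Cells of either set with Calb2 at 50 or more are called mixed below, since they held high Lypd1 and high Calb2 RNA at once.

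The CKO animals carried bhlhb5-Cre/+; Ai14/+; Runx1F/F and gave 3 samples, while the control animals carried bhlhb5-Cre/+; Ai14/+ and gave 2 samples. Every animal, control included, thus had the bhlhb5-Cre driver and the Ai14 tdTomato reporter, and cells that Cre had not acted on were left behind by a sort for tdTomato. Mice of both sexes were 30 to 33 days old, had no treatment, and lost Runx1 before birth, per the labels and the series' design text. The tissue was whole cochlea digested with collagenase and papain, and the 10x Genomics 3' assay was used. The deposited matrix does not say which sample a cell came from, so each genotype is 1 pool, and cells are not replicates. No test between genotypes was possible. Values are therefore compared by size, intervals are exact 95% intervals that cover counting error only, and a gene was called apart at a 2-fold difference.

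Type I neurons are the myelinated fibres that carry nearly all sound information from inner hair cells to the brain, and they come in 3 molecular subtypes, Ia, Ib and Ic. Type Ia neurons are known for calretinin (Calb2), type Ib neurons for calbindin (Calb1) and type Ic neurons for Lypd1, Pou4f1, Grm8 and Runx1. The subtypes differ in spontaneous firing rate and in where their endings sit on the inner hair cell, with Ia fibres at the high-rate end and Ic fibres at the low-rate end. Runx1 is a transcription factor of the Runt family that binds DNA with its partner Cbfb. Its own reads do not check the deletion here, because the 3' assay reads the end of the transcript and the sources used here do not say which part was removed.

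The column order of the matrix falls into 5 runs in which barcodes restart their alphabetical order, called stretches here. Stretches 1, 3 and 4 hold CKO cells (355, 372 and 157 cells) and stretches 2 and 5 hold control cells (482 and 588 cells). No source used here says which sample a stretch is, so they serve to show spread and are not used as replicates. Stretch 4 stood apart from the other CKO stretches and held values close to control for many genes below. It supplied 56 of the 132 CKO Lypd1-high neurons, and results are given with and without it. Whether its cells had lost Runx1 was not tested. The CKO Lypd1-high neurons held a median of 47494 UMIs per cell and the control Lypd1-high neurons 37895.5. No barcode of a Lypd1-high cell was shared between stretches.

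The set was smaller in CKO. Lypd1-high neurons were 18.03% of CKO type I neurons (interval 15.3 to 21.0) and 33.02% of control type I neurons (30.03 to 36.1). By stretch the share was 16.2%, 9.30% and 41.8% in CKO stretches 1, 3 and 4, against 45.1% and 23.8% in control stretches 2 and 5. The control stretches differed from each other more than the pooled genotypes did, and stretch 4 lay between them. Without stretch 4 the CKO share was 12.7%. These shares follow from the rule and are descriptions. At its edges, the nearest CKO cell inside the Lypd1 limit held 3.14 and the nearest outside held 2.94. Only 8 CKO type I neurons lay between 1.5 and 3 and 12 lay between 3 and 6, while 540 had 0 Lypd1 UMIs. The highest Dupd1 level inside was 0.599, and 1 CKO Lypd1-high cell was left out by that limit, at 4.81.

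A larger share of the CKO set carried both subtype marks. Of the CKO Lypd1-high neurons, 29 of 132 were mixed, 22.0% (15.2 to 30.004), and of the control Lypd1-high neurons 7 of 314, 2.23% (0.901 to 4.54). The CKO mixed cells were 20 of 48 in stretch 1 (41.7%), 8 of 28 in stretch 3 (28.6%) and 1 of 56 in stretch 4 (1.79%). Control stretches 2 and 5 had 4 of 185 (2.16%) and 3 of 129 (2.33%). Both larger CKO stretches therefore lay well above either control stretch, and stretch 4 lay just under them. The share was 36.8% in CKO without stretch 4 and 10.7% without stretch 1. The Calb2 limit runs through a spread of values in CKO, with 15 cells between 25 and 50 and 19 between 50 and 100. The CKO cells nearest to the limit held 53.5 inside and 49.2 outside.

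**Figure D1:**
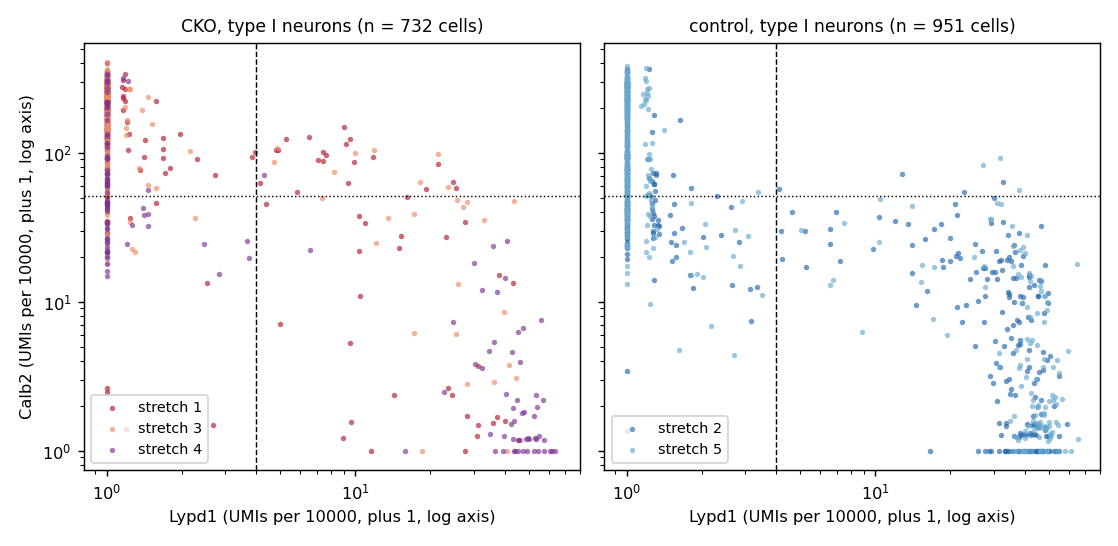
Lypd1 against Calb2 level in each type I neuron (UMIs per 10000 with 1 added, log axes; colours are stretches), CKO left and control right, with the limits of 3 and 50 drawn as lines. The upper right field holds 29 of 132 Lypd1-high neurons in CKO and 7 of 314 in control.

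Mixed cells sat at the low end of Lypd1. Lypd1, a lipid-anchored Ly6 protein that modulates nicotinic acetylcholine receptors, ran from 3.14 through a median of 29.2 to 62.9 over the CKO Lypd1-high neurons and from 3.11 through 38.0 to 64.4 over the control ones. In the 29 CKO mixed neurons it ran from 3.14 through 8.05 to 24.5. Between 3 and 10 Lypd1 UMIs per 10000, 20 of 31 CKO neurons were mixed (64.5%, 45.4 to 80.8), against 1 of 19 control neurons (5.26%). Between 10 and 30, 9 of 37 CKO neurons were mixed (24.3%), against 3 of 63 control neurons (4.76%). At 30 and above, 0 of 64 CKO neurons were mixed, which allows a share of up to 4.69% at 3 counts of the total (exact 95% upper bound 5.60%), against 3 of 232 control neurons (1.29%). That top band held 48.5% of the CKO Lypd1-high neurons and 73.9% of the control ones. Calb2, the cytosolic calcium binder calretinin, had a median of 4.71 and a highest value of 148 in the CKO set, against 3.57 and 90.8 in the control set.

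The CKO Lypd1-high neurons also carried genes that the rule did not use and that mark the other subtypes. Calb1, a cytosolic calcium buffer, B3gat1, the glucuronyltransferase that makes the HNK-1 sugar epitope on neuronal surface proteins, and Sh3bgr, a small thioredoxin-fold protein named from muscle, were all higher than in control Lypd1-high neurons. Pou4f1, a POU-domain transcription factor of sensory neurons, and Grm8, a metabotropic glutamate receptor, were close to control. These markers were picked with earlier results of the same data known, so their values are a description.

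Calb1 ran from 0 through a median of 0.466 to 7.90 in CKO Lypd1-high cells and from 0 through 0 to 2.95 in control. By stretch its mean was 2.93, 1.502 and 0.174 in CKO stretches 1, 3 and 4, against 0.104 and 0.0683 in control stretches 2 and 5. All 3 CKO stretches lay above both control stretches, stretch 4 by little. The pooled means were 1.46 in CKO and 0.0894 in control (log2 3.04), and the ratio of UMI rates was 17.1 (13.99 to 21.1). Calb1 also marks type Ib, and Calb2-low Lypd1-low CKO neurons held 2.20. Of the other type Ib genes Lrrc52 was near 0, and thinned Ttn UMIs (titin, the giant sarcomere protein) were found in 3.03% of CKO and 8.92% of control Lypd1-high neurons.

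B3gat1 ran from 0 through 0.271 to 6.23 in CKO cells and from 0 through 0 to 1.70 in control cells. Its stretch means were 1.87, 1.68 and 0.0180 in CKO stretches 1, 3 and 4, against 0.0638 and 0.108 in control stretches 2 and 5. Stretch 4 was below both control stretches, unlike the other CKO stretches. Pooled, B3gat1 averaged 1.04 in CKO and 0.0820 in control (log2 2.65), with a rate ratio of 12.6 (10.1 to 15.8). Sh3bgr ran from 0 through 1.19 to 6.16 in CKO cells and from 0 through 0 to 2.33 in control cells. Its means were 2.83, 2.36 and 0.122 in CKO stretches 1, 3 and 4, against 0.280 and 0.413 in control stretches 2 and 5. Here too stretch 4 lay outside the CKO pattern and under control. The pooled Sh3bgr means were 1.58 in CKO and 0.334 in control (log2 1.95), with a rate ratio of 4.71 (4.19 to 5.31).

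Pou4f1 ran from 0 through 0.924 to 3.40 in CKO cells and from 0 through 1.08 to 3.85 in control cells. Its stretch means were 0.84, 1.21 and 1.10 in CKO stretches 1, 3 and 4, against 1.19 and 1.14 in control stretches 2 and 5, so the genotypes overlapped. The Pou4f1 rate ratio was 0.87 (0.79 to 0.96; log2 -0.18). Grm8 had means of 0.892 in CKO and 0.817 in control, with a rate ratio of 1.03 (0.92 to 1.15). Runx1 reads, which do not check the deletion, averaged 2.51 in CKO and 1.84 in control, with 3.17, 2.503 and 1.95 in CKO stretches 1, 3 and 4, against 1.77 and 1.94 in control stretches 2 and 5. Stretch 4 had the lowest Runx1 level of the CKO stretches, next to the higher control stretch.

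**Figure D2:**
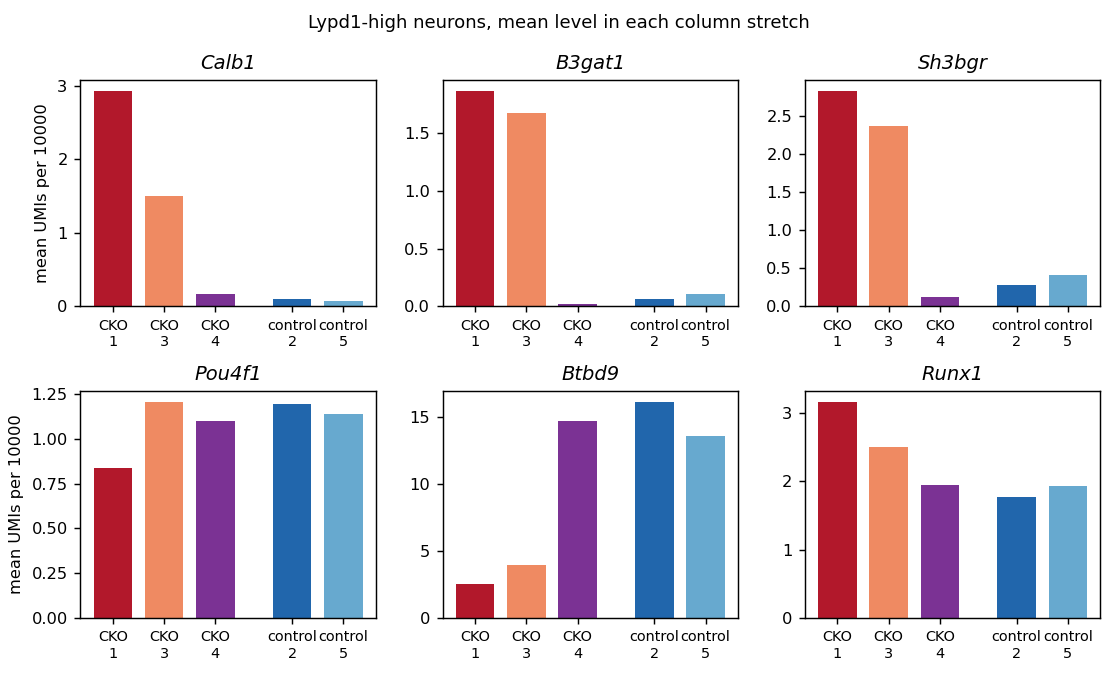
Mean level (UMIs per 10000) of the marker genes in Lypd1-high neurons of each stretch, CKO stretches 1, 3 and 4 first and control stretches 2 and 5 after them. Sh3bgr reads 2.83, 2.36 and 0.122 in CKO and 0.280 and 0.413 in control, while Pou4f1 overlaps between the genotypes.

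In the mouse genome (GRCm38/mm10, GENCODE M21) Lypd1 lies on the minus strand at chr1:125867622-125913101 and Calb1 on the plus strand at chr4:15881264-15908064. B3gat1 is on the plus strand at chr9:26733728-26763101 and Sh3bgr on the plus strand at chr16:96200450-96228935. Pou4f1 is on the minus strand at chr14:104461676-104467999 and Btbd9, a BTB-domain protein described below, on the minus strand at chr17:30215524-30576488. RUNX proteins are known to bind TGTGGT and TGCGGT, so the 250 bases before each annotated start were searched for these hexamers on both strands. RefSeq sequences (GRCm38.p6) are shown for Lypd1 and Pou4f1, type Ic marks with and without a match, for B3gat1, a type Ia mark, and for Klhdc2, a ubiquitin ligase substrate receptor. Klhdc2 averaged 1.59 in CKO and 0.882 in control Lypd1-high neurons, and 1.97 in CKO without stretch 4 (log2 1.08 against control). Its stretch means were 2.22, 1.54 and 1.07 in CKO stretches 1, 3 and 4, against 0.673 and 1.18 in control stretches 2 and 5. Each is printed 5′ to 3′ on the gene's strand and ends at the base before the start, with a match in capitals and no overlap between matches. The windows are chr1:125912215-125912464 for Lypd1 (minus, a start inside the gene's span), chr14:104468000-104468249 for Pou4f1 (minus), chr9:26751312-26751561 for B3gat1 (plus, a start inside the gene's span) and chr12:69296431-69296680 for Klhdc2 (plus).
Lypd1: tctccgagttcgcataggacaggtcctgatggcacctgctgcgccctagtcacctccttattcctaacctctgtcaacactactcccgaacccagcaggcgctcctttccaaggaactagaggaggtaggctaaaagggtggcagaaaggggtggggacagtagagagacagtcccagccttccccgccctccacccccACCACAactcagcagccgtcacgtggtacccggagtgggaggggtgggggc
Pou4f1: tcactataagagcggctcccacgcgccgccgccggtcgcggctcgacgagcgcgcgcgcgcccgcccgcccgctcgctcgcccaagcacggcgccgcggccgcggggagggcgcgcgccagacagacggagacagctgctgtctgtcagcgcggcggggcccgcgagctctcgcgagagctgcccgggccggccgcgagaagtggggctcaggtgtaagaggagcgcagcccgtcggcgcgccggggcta
B3gat1: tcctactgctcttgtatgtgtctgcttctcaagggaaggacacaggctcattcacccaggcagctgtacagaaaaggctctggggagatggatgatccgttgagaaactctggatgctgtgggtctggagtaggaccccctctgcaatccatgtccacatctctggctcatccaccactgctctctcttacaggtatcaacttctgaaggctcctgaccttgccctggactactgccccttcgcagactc
Klhdc2: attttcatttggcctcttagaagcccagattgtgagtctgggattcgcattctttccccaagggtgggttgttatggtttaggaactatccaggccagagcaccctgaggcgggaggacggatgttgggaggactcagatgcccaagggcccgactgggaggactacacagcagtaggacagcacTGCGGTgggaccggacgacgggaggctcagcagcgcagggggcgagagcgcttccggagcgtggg

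The Lypd1 window held 1 match, TGTGGT on the opposite strand 51 bases before the start. The other windows of Lypd1 held none, that of its outermost listed start among them. The Klhdc2 window held TGCGGT 65 bases before the start, and the Pou4f1 and B3gat1 windows held no match. Klhdc2 is an example with a match, and other type Ia genes raised in CKO without stretch 4 were searched too. The windows of Gnao1 (log2 1.96) and Mdga1 (log2 1.16) held no match, and Tmem229b (log2 1.24) had 1 match. Over all windows of the table, 18.6% of 32851 held either hexamer, 14.05% TGTGGT and 5.10% TGCGGT, and 20.9% of 27025 genes had it in some window. Of the 50 type Ia genes defined below, 37 had a window and 15 of these held a match (40.5%). Of the 50 type Ic genes, 40 had a window and 4 held a match (10%). A match in these letters is a description and not a bound site.

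Calb1, B3gat1 and Sh3bgr occurred together in single CKO cells. With every cell thinned to 10000 UMIs, so that depth did not differ, a Calb1 UMI was found in 47.7% of CKO Lypd1-high neurons (39.0 to 56.6) and in 6.05% of control ones. The Calb1 share was 83.3%, 57.1% and 12.5% in CKO stretches 1, 3 and 4, against 7.03% and 4.65% in control stretches 2 and 5. Without thinning it was 64.4% in CKO and 15.3% in control. Among Dupd1-positive cells, taken as a type that should hold little of it, a thinned Calb1 UMI was found in 3 of 152 CKO cells (1.97%) and 0 of 119 control cells, which allows up to 2.52% at 3 counts (exact bound 3.05%). B3gat1 was found in 41.7% of CKO and 5.73% of control Lypd1-high neurons, against 1.32% of CKO and 2.52% of control Dupd1-positive cells. Sh3bgr was found in 54.5% of CKO and 26.1% of control Lypd1-high neurons, against 6.58% of CKO and 1.68% of control Dupd1-positive cells. Pou4f1 was found in 65.9% of CKO and 68.2% of control Lypd1-high neurons. All of Calb1, B3gat1 and Sh3bgr were found in 41 of 132 CKO Lypd1-high neurons (31.1%, 23.3 to 39.7) and in 1 of 314 control ones (0.318%). That share was 62.5%, 39.3% and 0% in CKO stretches 1, 3 and 4, against 0.541% and 0% in control stretches 2 and 5. Cells with all of them were 17 of 29 CKO mixed neurons (58.6%) and 24 of 103 CKO Lypd1-high neurons with Calb2 under 50 (23.3%), against 1 of 307 such control neurons (0.326%). The difference was not particular to the Lypd1-high set. In Lypd1-low Calb2-high neurons all of them were found in 182 of 536 CKO cells (34.0%) and 31 of 459 control cells (6.75%). There Calb1 was found in 56.7% of CKO and 34.9% of control cells, B3gat1 in 83.4% and 69.7%, and Sh3bgr in 64.4% and 39.4%.

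In CKO, the Calb1, B3gat1 and Sh3bgr levels were lowest at the highest Lypd1. In control this held for Calb1 and B3gat1 and not for Sh3bgr. In the band from 3 to 10 Lypd1 UMIs per 10000, Calb1 averaged 3.01 in CKO and 0.573 in control, B3gat1 1.71 in CKO and 0.210 in control, and Sh3bgr 2.75 in CKO and 0.409 in control. From 10 to 30, Calb1 averaged 1.87 in CKO and 0.0886 in control, B3gat1 1.72 in CKO and 0.155 in control, and Sh3bgr 2.25 in CKO and 0.166 in control. At 30 and above, Calb1 averaged 0.469 in CKO and 0.0500 in control, B3gat1 0.332 in CKO and 0.0516 in control, and Sh3bgr 0.631 in CKO and 0.374 in control. B3gat1 in CKO was thus level over the lower bands, and Sh3bgr in control was lowest in the middle band. Btbd9, whose protein joins substrates to cullin ubiquitin ligases, ran the other way. It averaged 1.70 in CKO and 14.4 in control in the lowest band, 4.58 in CKO and 16.2 in control from 10 to 30, and 13.0 in CKO and 14.8 in control at 30 and above. In control the Btbd9 level thus differed little over the bands, and in CKO it was higher in the higher bands. Outside the bands Btbd9 did not simply follow Lypd1 in CKO. Lypd1-low Calb2-low CKO neurons averaged 6.43 in stretch 1 and 10.8 in stretch 3, against 3.56 and 5.02 in Lypd1-high Calb2-low ones. Over all type I neurons, Pearson's r of Btbd9 with Lypd1 was 0.388 in CKO and 0.447 in control. Stretch 4 supplies many of the CKO cells at high Lypd1, with a stretch mean of 42.2 Lypd1 UMIs per 10000 against 15.8 and 23.1 in stretches 1 and 3.

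Mixing was next read from wider gene sets that leave out Lypd1, Calb2, Dupd1 and Runx1. The 50 genes with the highest ratio of control Calb2-high Lypd1-low neurons (459 cells) to control Lypd1-high Calb2-low neurons (307 cells) are called type Ia genes, and the 50 with the highest opposite ratio type Ic genes. Each cell got a type Ia and a type Ic score, the mean of its set with each gene scaled to its own control end group. The midpoint between the control end groups was 0.708 for the type Ia score and 0.654 for the type Ic score. The sets come from control cells that also enter the comparison, so the control values are low by construction. Lypd1-low Calb2-low neurons were not used for the choice, so type Ib genes can be among the type Ia genes, as Calb1 is.

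Of the CKO Lypd1-high neurons, 56 of 132 lay at or above the type Ia midpoint (42.4%, 33.9 to 51.3), against 2 of 314 control ones (0.637%). The share was 85.4%, 53.6% and 0% in CKO stretches 1, 3 and 4, against 0% and 1.55% in control stretches 2 and 5. Stretch 4 had 0 such cells of 56, which allows a share of up to 5.36% at 3 counts (exact bound 6.38%). Without Calb1, B3gat1, Sh3bgr and Pou4f1 in the sets, the share was 23.5% in CKO and 0.955% in control. Above both midpoints at once were 32 of 132 CKO neurons (24.2%, 17.2 to 32.5), against 2 of 314 control neurons. Of the CKO Lypd1-high neurons with Calb2 under 50, which the Calb2 limit does not count as mixed, 20 of 103 lay above both midpoints (19.4%, 12.3 to 28.4), against 0 of 307 such control neurons, which allows up to 0.977% at 3 counts (exact bound 1.19%). These 307 cells also chose the genes and set the midpoints. Their count is therefore low by construction, and the bound is not a rate for other control cells.

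The CKO mixed neurons scored between the subtypes. Their median type Ia score was 0.810 and their median type Ic score 0.662. CKO Lypd1-low Calb2-high neurons had medians of 1.07 for type Ia and 0.287 for type Ic, and control Lypd1-high neurons 0.423 for type Ia and 0.9999 for type Ic. Lypd1-high neurons of stretch 4 had 0.409 for type Ia and 1.09 for type Ic. The intermediate score was uneven over genes. Among the type Ia genes, 16 of 50 in CKO mixed neurons were nearer to the type Ia end, 9 of them beyond it, while 8 lay beyond the type Ic end, and the median gene had covered 24.99% of the way. The same position was 35.1% in Calb2-low CKO neurons of stretch 1 (20 of 50 genes nearer), 22.3% in those of stretch 3 and -5.49% in those of stretch 4. In the 7 control mixed neurons it was 54.2% (27 of 50 genes nearer). Among the type Ic genes, 26 of 50 were nearer to the type Ic end, and the median gene stood 53.4% of the way towards it. A few type Ia genes, Calb1 and Sh3bgr among them, thus weigh heavily in the type Ia score. The score alone does not tell type Ia from type Ib. In control, a thinned Calb1 UMI was found in 56.7% of Lypd1-low Calb2-low and 34.9% of Lypd1-low Calb2-high neurons. B3gat1 (30.3% and 69.7%) and Sh3bgr (17.98% and 39.4%) went the other way.

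**Figure D3:**
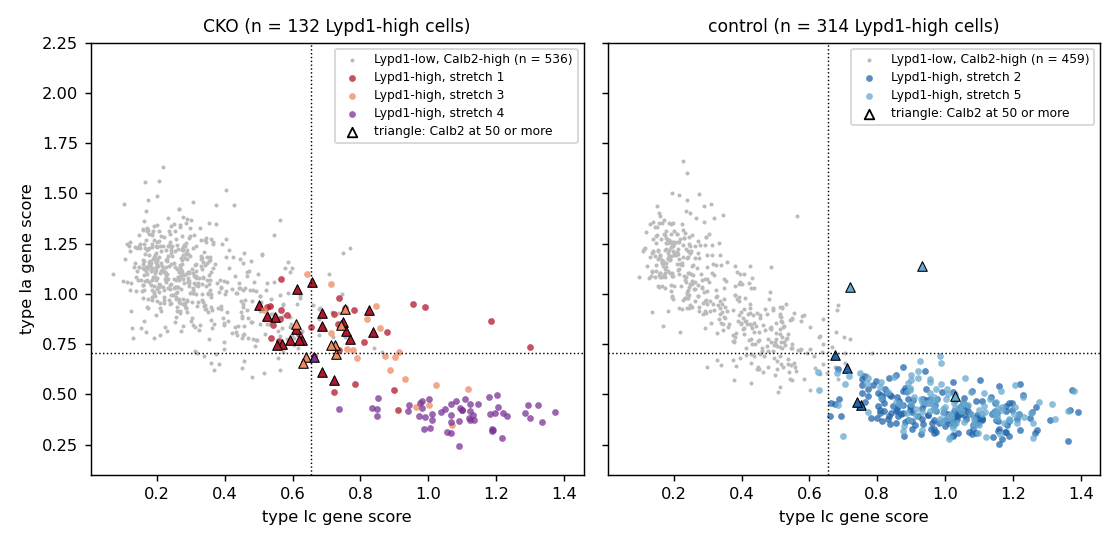
Type Ia score against type Ic score (no unit; 1 is the level of the control end group) in each Lypd1-high neuron, CKO left and control right, with the midpoints 0.708 and 0.654 as lines; triangles are mixed neurons, colours are stretches and grey points are Lypd1-low Calb2-high neurons. The upper right field holds 32 of 132 CKO Lypd1-high neurons and 2 of 314 control ones.

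Across all genes, the CKO Lypd1-high neurons with Calb2 under 50 (103 cells) differed from the same control neurons (307 cells) in few. Of 3857 genes with a mean of 0.5 or more in either genotype, 12 were at least 2-fold higher in CKO (0.311% of those tested) and 2 at least 2-fold lower (0.0519%). Among the 12 were Calb1 (1.18 in CKO and 0.0914 in control, log2 2.74), B3gat1 (0.861 in CKO and 0.0711 in control, log2 2.49) and Sh3bgr (1.21 in CKO and 0.336 in control, log2 1.59). Ceacam10, a member of the carcinoembryonic antigen family, averaged 1.17 in CKO and 0.341 in control (log2 1.53). Cplx2, a complexin that acts on the vesicle fusion machinery, averaged 1.52 in CKO and 0.478 in control (log2 1.49). Hopx, a small homeodomain protein, averaged 0.740 in CKO and 0.238 in control (log2 1.32). Ptgds, a prostaglandin D synthase also made by glia and meninges, averaged 1.35 in CKO and 0.585 in control (log2 1.08). Summed Schwann cell markers had medians of 33.7 in CKO and 34.4 in control Lypd1-high neurons. In cells with a Schwann marker sum under 5, a limit chosen after seeing the data, the Ceacam10 log2 value was -0.029. The Ptgds log2 value ran from 0.22 to 1.52 over all alternative settings. The part of glial RNA in either value was not tested. The 2 genes called lower were Rpl29 (1.58 in CKO and 3.47 in control, log2 -1.08) and Rpl21 (1.96 in CKO and 4.19 in control, log2 -1.06), ribosomal proteins with near-identical copies in the genome, so reads could have been split and these values are uncertain. Rps2, another such gene, was higher in CKO (1.82, against 0.838 in control).

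Ush1c, which encodes the scaffold harmonin known from hair cells, showed how far stretch 4 can set a value. Its pooled log2 value was 1.52 in the Calb2-low neurons, and it was -1.14 without stretch 4. Over all Lypd1-high neurons it averaged 0.0032, 0 and 0.996 in CKO stretches 1, 3 and 4, against 0.20 and 0 in control stretches 2 and 5. With stretch 4 left out (48 CKO and 307 control cells), 23 of 3875 genes were at least 2-fold higher in CKO (0.594%) and 9 at least 2-fold lower (0.232%), more each way than with it.

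**Figure D4:**
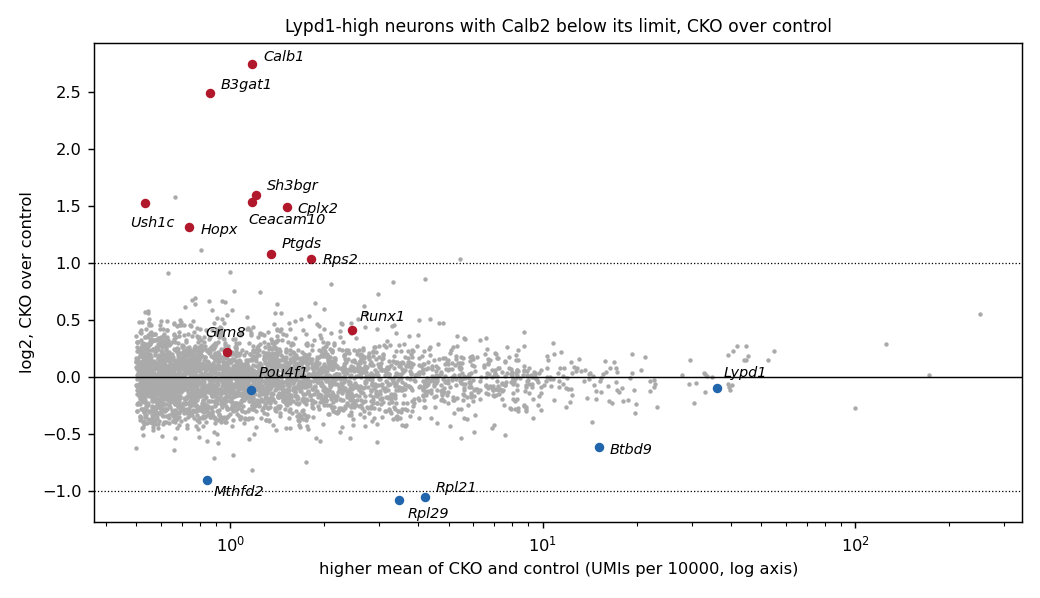
Log2 of CKO over control against the higher of the 2 mean levels (UMIs per 10000, log axis) for each gene in Lypd1-high neurons with Calb2 under 50. Calb1, B3gat1 and Sh3bgr stand at 2.74, 2.49 and 1.59, and most genes lie within 2-fold.

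The genes higher in stretches 1 and 3 included Calb1, B3gat1 and Sh3bgr. Calb1 was at 2.32 in these CKO neurons and 0.0914 in control (log2 3.66), B3gat1 at 1.83 in CKO and 0.0711 in control (log2 3.49) and Sh3bgr at 2.46 in CKO and 0.336 in control (log2 2.55). Gnao1, the alpha subunit of the neuronal Go protein, averaged 0.937, 0.664 and 0.176 in CKO stretches 1, 3 and 4, against 0.116 and 0.151 in control stretches 2 and 5. Kcns3, a silent modulatory subunit of voltage-gated potassium channels, averaged 1.07, 0.712 and 0.0774 in CKO stretches 1, 3 and 4, against 0.167 and 0.306 in control stretches 2 and 5. Both were thus high in stretches 1 and 3 and near control level in stretch 4. Mdga1, a surface protein that binds neuroligins, averaged 7.31, 7.62 and 2.20 in CKO stretches 1, 3 and 4, against 3.76 and 2.71 in control stretches 2 and 5. Fgf1, a fibroblast growth factor, averaged 3.74, 3.01 and 0.850 in CKO stretches 1, 3 and 4, against 1.43 and 1.96 in control stretches 2 and 5. Col27a1, a fibrillar collagen gene, averaged 1.71, 1.91 and 0.301 in CKO stretches 1, 3 and 4, against 0.278 and 0.770 in control stretches 2 and 5. For each of these, stretches 1 and 3 stood above both control stretches. Cplx2 was uneven, at 3.60, 0.534 and 0.814 in CKO stretches 1, 3 and 4, against 0.245 and 0.812 in control stretches 2 and 5, so its pooled difference rests on stretch 1. Pcp4, a calmodulin-binding protein (log2 2.51 without stretch 4), rests on stretch 3, where it averaged 1.25. Stretches were first looked at after the data had been seen, as were the genes of this paragraph.

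The genes lower in stretches 1 and 3 included Btbd9 and further type Ic genes. Btbd9 averaged 3.56, 5.02 and 14.8 in CKO stretches 1, 3 and 4, against 16.2 and 13.6 in control stretches 2 and 5 (4.17 in CKO without stretch 4 and 15.2 in control, log2 -1.84). Islr2, a leucine-rich-repeat membrane protein of developing sensory axons, averaged 0.0425, 0.155 and 0.727 in CKO stretches 1, 3 and 4, against 0.714 and 0.599 in control stretches 2 and 5 (log2 -2.02). For these genes stretches 1 and 3 lay below both control stretches, and stretch 4 lay within or near their range. Kcnip2, which binds Kv4 potassium channels, averaged 0.189, 0.510 and 0.999 in CKO stretches 1, 3 and 4, against 0.888 and 0.731 in control stretches 2 and 5 (log2 -1.13). Cpne9, a copine that binds membranes with calcium, averaged 0.602, 1.57 and 2.22 in CKO stretches 1, 3 and 4, against 2.32 and 2.23 in control stretches 2 and 5 (log2 -1.11). Homer2, a postsynaptic scaffold of metabotropic glutamate receptors, averaged 0.408 in CKO without stretch 4 and 1.02 in control (log2 -1.14).

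Read by set, 49 type Ia genes had a mean of 0.2 or more in either genotype, and without stretch 4 10 of them were at least 2-fold higher in Calb2-low CKO Lypd1-high neurons and 0 lower. Their median log2 value was 0.36, and 42 were above 0. Of the 50 type Ic genes 0 were at least 2-fold higher and 5 lower, with Btbd9, Islr2, Kcnip2 and Cpne9 among them, and the median was -0.29. Over all 6793 genes at that mean 40 were at least 2-fold higher and 16 lower, and the median was -0.02. With stretch 4, in all Lypd1-high neurons, CKO was at least 2-fold higher in 4 of 49 type Ia genes and lower in 0 (median 0.18 over these 49), and the type Ic median was -0.18. Over all 6693 genes at a mean of 0.2, 19 were at least 2-fold higher and 3 lower. At a mean of 0.5 the counts were 14 of 3845 genes higher (0.364%) and 1 lower (0.026%). Since the sets were taken from the same control cells, their opposite directions are a description of mixing and not a test of it.

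Within CKO, the mixed neurons were compared with their neighbours on either side. Against the CKO Lypd1-high neurons with Calb2 under 50, 6 of 3800 genes were at least 2-fold higher in mixed neurons (0.158%) and 17 at least 2-fold lower (0.447%). Sh3bgr averaged 2.89 in mixed neurons and 1.21 in Calb2-low ones (log2 1.19), and Calb1 2.46 in mixed and 1.18 in Calb2-low ones (log2 1.01). The Calb1 difference did not hold within stretches, with 3.16 in mixed and 2.77 in Calb2-low neurons of stretch 1, and 1.04 in mixed and 1.69 in Calb2-low neurons of stretch 3. Btbd9 averaged 1.39 in mixed and 9.84 in Calb2-low neurons (log2 -2.73). Among the lower genes were also Ush1c (log2 -2.23), Basp1, a growth-cone membrane protein (log2 -1.42), Rph3a, the vesicle protein rabphilin (log2 -1.40), and Cpne6, a neuronal copine (log2 -1.26). Stretch 4 is nearly all Calb2-low, which bears on these values. Ush1c was nearly absent from CKO stretches 1 and 3, as given above, so its value reflects stretch 4. The Sh3bgr and Btbd9 differences were smaller within stretches 1 and 3, as given below. Basp1, Rph3a and Cpne6 are not given within stretches.

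Against the CKO Lypd1-low Calb2-high neurons, which held the type Ia mark without Lypd1, 18 of 3695 genes were at least 2-fold higher in mixed neurons (0.487%) and 12 at least 2-fold lower (0.325%). The higher genes included further type Ic genes besides the one of the rule. Grm8 averaged 0.589 in mixed and 0.056 in Lypd1-low Calb2-high neurons (log2 2.15), and Pou4f1 0.866 in mixed and 0.157 in Lypd1-low Calb2-high neurons (log2 1.91). Sphkap, an anchoring protein of protein kinase A, averaged 1.24 in mixed and 0.171 in Lypd1-low Calb2-high neurons (log2 2.31). Cplx2 averaged 1.30 in mixed and 0.058 in Lypd1-low Calb2-high neurons (log2 3.14). Rbfox3, the neuronal splicing factor NeuN (log2 1.58), Pcsk2, a prohormone convertase (log2 1.48), and Ccdc109b, a subunit of the mitochondrial calcium uniporter (log2 2.11), were higher too. Lower in mixed neurons were Zfp804a, a zinc finger protein (1.55 in mixed and 5.15 in Lypd1-low Calb2-high neurons, log2 -1.67), Upp1, uridine phosphorylase (0.11 in mixed and 0.54 in Lypd1-low Calb2-high neurons, log2 -1.63), and Basp1 (log2 -1.25).

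Some genes of the mixed neurons lay between these neighbours and others did not. Cd24a, a small sialoglycoprotein, averaged 6.67 in mixed neurons, between 3.84 in the Calb2-low and 12.6 in the Lypd1-low Calb2-high CKO neurons. Mdga1 averaged 8.02 in mixed neurons, between 4.64 and 9.83 in the same order. Sh3bgr was above both neighbours, also within stretches. In stretch 1 it averaged 3.07 in mixed neurons, against 2.65 in Calb2-low Lypd1-high and 1.78 in Lypd1-low Calb2-high neurons, and in stretch 3 it averaged 2.80 in mixed neurons, against 2.19 and 1.20. Btbd9 was below both neighbours. In stretch 1 it averaged 0.989 in mixed neurons, against 3.56 in Calb2-low Lypd1-high and 1.35 in Lypd1-low Calb2-high neurons, and in stretch 3 it averaged 1.27 in mixed neurons, against 5.02 and 1.87. Pou4f1 and Grm8 lay between the neighbours in both stretches, with Pou4f1 at 0.788 in mixed neurons of stretch 1, against 0.871 and 0.173. Mixed CKO neurons held a median of 50059 UMIs (17070 to 68402), against 45280 in Calb2-low Lypd1-high and 48370.5 in Lypd1-low Calb2-high CKO neurons. No doublet caller was run, and the part of doublets in the mixed neurons was not tested.

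**Figure D5:**
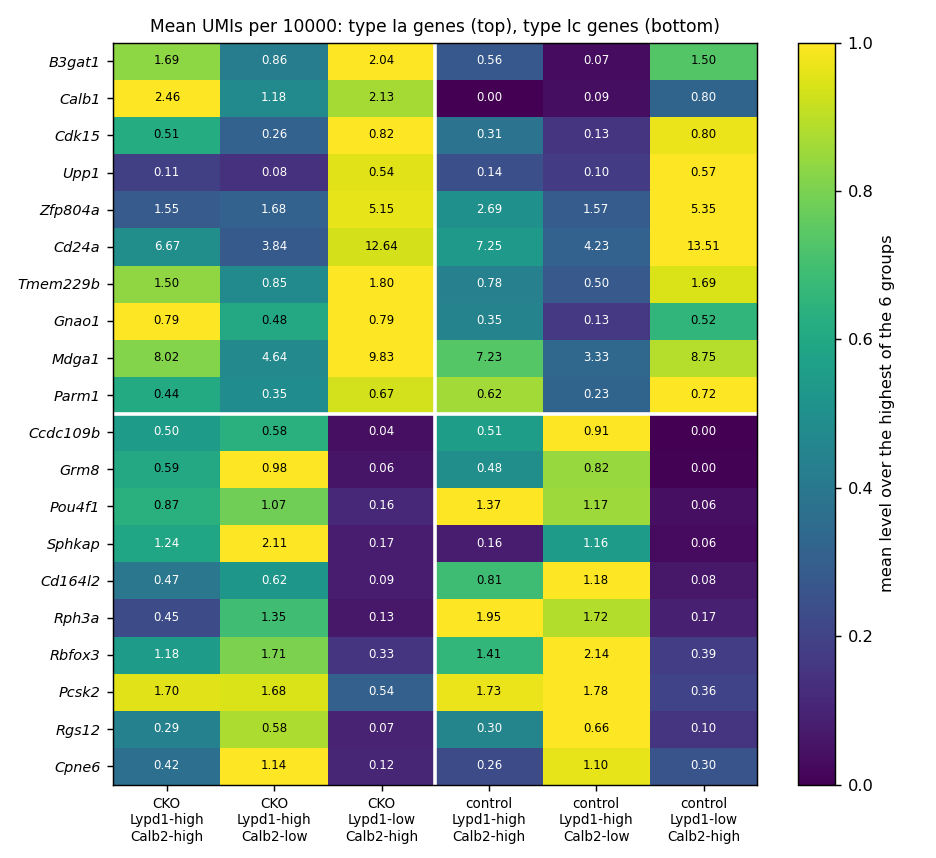
Mean level (UMIs per 10000, printed in each cell) of the 10 leading type Ia genes (top rows) and type Ic genes (bottom rows) in mixed, Lypd1-high Calb2-low and Lypd1-low Calb2-high neurons, CKO columns left and control columns right, with colour giving the level over the highest of the 6 groups. CKO mixed neurons hold B3gat1 (1.69) and Grm8 (0.59) together, while CKO Lypd1-low Calb2-high neurons hold B3gat1 at 2.04 and Grm8 at 0.06.

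Mixed neurons of the 2 genotypes passed the same limits of Calb2 and Lypd1 and differed in other genes, but only 7 control cells stand behind the control values. Calb1 had 370 UMIs in the 29 CKO mixed neurons and 0 UMIs in the 7 control ones. With control set at 3 counts over the group, the CKO rate would be 21.9-fold higher. This figure is not a lower bound, since UMIs of 1 cell are not independent. Finding Calb1 in 0 of 7 cells allows a share of up to 41.0% of such control cells. Over the alternative settings the Calb1 log2 value ran down to 1.79. Sh3bgr averaged 2.89 in CKO and 0.265 in control (log2 3.03), and Sphkap 1.24 in CKO and 0.165 in control (log2 2.34), although 3 Sphkap UMIs lie behind the control value. Crym, the thyroid hormone binding protein mu-crystallin, averaged 0.08 in CKO and 1.63 in control (log2 -3.26), and Btbd9 1.39 in CKO and 10.8 in control (log2 -2.87). Basp1 averaged 0.17 in CKO and 1.17 in control (log2 -2.26), and Rph3a 0.45 in CKO and 1.95 in control (log2 -1.89). By the same fold rule 69 of 4119 genes were at least 2-fold higher in CKO (1.68%) and 173 lower (4.2%). The counts reached 419 higher and 865 lower genes with 1 stretch left out. Set against the 307 control Lypd1-high neurons with Calb2 under 50, a larger control group, the CKO mixed neurons had 31 of 3823 genes at least 2-fold higher (0.811%) and 30 lower (0.785%), and Calb1 had a log2 value of 3.74.

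Genes of neuronal function were mostly close between CKO and control Lypd1-high neurons. Of 23 lists, 18 had no member at least 2-fold apart in either direction over all Lypd1-high neurons. Among potassium channels 1 of 18 was at least 2-fold higher (Kcns3, 0.60 in CKO and 0.23 in control, log2 1.09) and 0 lower. Among genes of vesicular transport and release 1 of 19 was higher, Cplx2 (log2 1.44), and 0 lower. Of 12 transcription factors 0 were called, with Zfhx3, a large homeobox zinc finger factor, at 1.01 in CKO and 0.57 in control (log2 0.73). Of 6 calcium buffers 1 was higher (Calb1), of 2 HNK-1 enzymes 1 was higher (B3gat1), while B3gat3, the related linker enzyme of proteoglycans, was at 2.11 in CKO and 2.26 in control. Neither direction was called in 12 glutamate receptors and scaffolds, 6 sodium and HCN channels, 7 calcium channels, 14 axon guidance genes and 10 netrin-G and adhesion genes. Of 7 ubiquitin ligase genes 0 were called, with Btbd9 at 7.98 in CKO and 15.1 in control (log2 -0.91). The other lists had no member called either, namely 6 neuronal calcium sensors, 3 Ly6 and nicotinic receptor genes, 4 GABA and glycine receptors, 4 cadherins, 3 neurotrophin receptors, 10 cytoskeletal genes, 4 copines, 6 pump subunits, 7 neuropeptide genes, 6 immediate early genes and 19 genes of oxidative phosphorylation. The exception was Sh3bgr among 3 muscle-associated genes. Without stretch 4, Kcnip2 (log2 -1.09) among potassium channels, Homer2 (log2 -1.16) among glutamate receptor scaffolds and Btbd9 (log2 -2.28) among ubiquitin ligase genes were at least 2-fold lower as well. Over all 6693 genes at a mean of 0.2 or more, 19 were at least 2-fold higher in CKO and 3 lower, with a median of -0.03.

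The cells had the marks of neurons with some glial RNA in both genotypes. All 9 neuron markers were present, with median sums of 196 in CKO and 173 in control Lypd1-high neurons. Schwann cell markers, all 10 in the matrix, had sums from 0 to 232 around 33.7 in CKO and from 0 to 140.5 around 34.4 in control. Satellite glia markers summed to medians of 13.8 in CKO and 13.4 in control, mostly S100b. Of 7 type II markers, Th and Etv4 were at 0 in both genotypes and Plk5 was at 0 in CKO. Prph and Smad3 were above 0 with means under 0.2 in both. Ngfr, the 1 type II marker at a mean of 0.2 or more, averaged 0.374 in CKO and 0.402 in control. It is also among the type Ia genes. Endothelial and red blood cell markers had 0 of 5 genes each in the matrix. Only 44 CKO and 113 control Lypd1-high neurons had a Schwann marker sum under 5. Among these, 13.6% of CKO neurons were mixed, against 22.0% in all, and the median log2 over all 50 type Ia genes was 0.38, against 0.17 in all Lypd1-high neurons.

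Across type I neurons, the genes whose level followed Lypd1 most closely in control also had positive coefficients in CKO, lower for most. They were picked by their control coefficients and not ranked in CKO, and this choice by itself favours lower CKO values. Over 951 control neurons the nearest 5 were Grm8 (Pearson's r 0.790 in CKO and 0.857 in control), Ccdc109b (0.707 in CKO and 0.843 in control), Pou4f1 (0.657 in CKO and 0.827 in control), Cd164l2, a sialomucin-like gene (0.525 in CKO and 0.777 in control), and Sphkap (0.700 in CKO and 0.702 in control). The CKO values are over 732 neurons. On the opposite side, Calb2 had -0.793 in CKO and -0.807 in control, B3gat1 -0.474 in CKO and -0.709 in control, and Calb1 -0.141 in CKO and -0.415 in control. These coefficients are over cells that share libraries and depth, so they carry no p and describe these cells only.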

How the data were processed

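Single-cell RNA was counted in tdTomato-sorted spiral ganglion neurons from 3 CKO and 2 control samples. Cell Ranger, Seurat and the build mm10 are named in the submitters' processing notes. The authors deposited 14715 genes by 1954 cells as natural log values, ln(1 + 100000 × UMIs / cell total), as read from the values. All 12815235 values above 0 (100%) gave whole UMIs within 0.01. How the authors chose cells is not given in the sources used here. The plan assumed each genotype to be 1 pool, since a second deposited record gives a cell's genotype and not its sample.

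Levels are means over cells of UMIs per 10000, with 0.1 added for log2((CKO + 0.1)/(control + 0.1)). A gene was called at 2-fold and a mean of 0.5 in either group, and lists took genes at a mean of 0.2. Shares have Clopper-Pearson intervals, and UMI rate ratios exact conditional Poisson intervals, at 95%, for counting error only. Cells were thinned to 10000 UMIs with seed 1. Depth was 10379 to 100856 UMIs per cell. No doublet caller and no clustering was run. The fold calls were checked on simulated data. Alternatives were other limits for Lypd1, Calb2 and the mean, other added constants, thinning, summed UMIs, other set sizes, cells low in glial RNA, and each stretch left out.

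The text names the rule genes, subtype markers, the 10 genes with the highest and the 10 with the lowest log2 in each main comparison, up to 4 members of each list, the 5 nearest genes, and, chosen after their values were seen, genes called without stretch 4. Some are left out for space, predicted genes among them, and a gene that this rule names is not reported here. The members, markers and lists were chosen with earlier results of these data known. Versions were Python 3.11.15, numpy 2.4.6, pandas 2.3.3, scipy 1.17.1 and matplotlib 3.10.9.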

Additional observations from a re-analysis of the deposited data

How the results depend on the processing

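No paired analysis was possible because replicate numbers 4 and 5 are shared by the genotypes but cells cannot be assigned to samples. Leaving out each stretch in turn gave Lypd1-high shares from 12.7% to 24.1% in CKO and from 23.8% to 45.1% in control, and mixed shares from 10.7% to 36.8% in CKO. Shares above the type Ia midpoint then ran from 17.9% to 73.7% in CKO and from 0.637% to 2.16% in control. The median log2 of the 50 type Ia genes ran from 0.09 to 0.31 and that of type Ic genes from -0.41 to -0.051. Counts for Calb2 under 50 ran from 8 to 23 higher and from 1 to 9 lower, and those for mixed neurons from 71 to 419 higher and from 115 to 865 lower. With a Lypd1 limit of 10 the CKO Lypd1-high share was 13.8%, the CKO mixed share 8.91% and the CKO share above the type Ia midpoint 30.7%. A Calb2 limit of 25 gave mixed shares of 33.3% in CKO and 11.8% in control, and a limit of 100 gave 7.58% in CKO and 0% in control. Cells with Schwann sums under 5, an alternative chosen after seeing the data, gave 14.7% Lypd1-high and 13.6% mixed in CKO, 0% above the type Ia midpoint in control, 23 genes higher for Calb2 under 50, and a type Ia median of 0.38. Above the type Ia midpoint, thinning gave 31.0% in CKO and 2.89% in control. Without the markers, also chosen after seeing the data, CKO had 23.5%. Sets of 20 genes gave 2.55% in control, and genes from control stretch 2 gave 3.82%. The mixed counts, 69 higher and 173 lower, rest on 7 control cells. They were 42 and 106 at a Lypd1 limit of 1, 117 and 304 at 10, 30 and 14 at a Calb2 limit of 25, 376 and 720 after thinning, 7 and 6 with 1 added, 121 and 265 with 0.01 added, 169 and 356 at a mean of 0.2, and 256 and 427 with no filter. Summed UMIs gave 86 lower. For Calb2 under 50, adding 1 left 0 higher and 0 lower, a Lypd1 limit of 1 or a Calb2 limit of 100 gave 1 lower, and a mean of 0.2 or no filter 4 lower. Reversed were Ceacam10 with Schwann sums under 5 (-0.029), Crtac1 in mixed neurons without stretch 2 (1.27, and down to -2.63 with another stretch left out) and Ush1c for Calb2 under 50 without stretch 4 (-1.14, and up to 2.64 with another stretch left out). Of the shares, gene counts and set medians under an alternative, 107 kept to the range set around the main value and 59 moved out of it. Of single-gene values under an alternative, 570 stayed on the same side of the 2-fold line, 67 crossed it and 3 reversed. Staying on 1 side does not mean an equal size, as Calb1 in mixed neurons ran from 1.79 to 7.95. The cause was not tested. The planned limit on summed glial markers left 1 Lypd1-high cell in each genotype, and a Calb2 limit of 100 left too few control mixed cells, so neither gave mixed counts.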

Other observations

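Of 19 genes of oxidative phosphorylation, 15 had a log2 value above 0 in CKO mixed neurons against the 7 control mixed neurons (78.9%, against 41.2% of all 7099 genes at a mean of 0.2), and 0 reached 2-fold. In all Lypd1-high neurons 9 of 19 were above 0. Cox5a, a subunit of cytochrome c oxidase, averaged 40.3 in CKO and 26.8 in control (log2 0.59). Atp5g1, of the ATP synthase membrane ring, averaged 19.7 in CKO and 13.1 in control (log2 0.59), and Cycs, cytochrome c, 13.7 in CKO and 8.01 in control (log2 0.77). Of 10 cytoskeletal genes 6 were above 0 in the mixed comparison. Nefl, the light neurofilament subunit, averaged 55.9 in CKO and 34.2 in control (log2 0.71). Among Lypd1-high neurons with Calb2 under 50, Nefl averaged 41.8 in CKO and 34.7 in control (log2 0.27). Gm1821, a predicted gene named after its values were seen, averaged 0.139, 4.5 and 13.5 in Lypd1-high neurons of CKO stretches 1, 3 and 4, against 10.01 and 8.98 in those of control stretches 2 and 5.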
